A study of Mus musculus with 17 samples.

Results

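The core circadian clock was followed in 10 genes: Arntl, Clock, Per1, Per2, Cry1, Cry2, Nr1d1, Nr1d2, Dbp and Nfil3. All 10 were found by symbol among the 22859 genes of the combined count table, and all 10 were among the 15272 genes that passed the filter on low counts. The list was chosen from values of these same libraries, because the low Arntl level in LYVE1+CX3CR1+ macrophages after immune complexes was already known when it was drawn up. The values of that contrast are therefore described without a test, and nothing is supported with them.

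The libraries were bulk RNA-seq of macrophages sorted from mouse synovium, the membrane that lines joints. Every mouse carried the Fcgr2b knockout, which removes the inhibitory Fc receptor for IgG, so no wild-type library is among those compared here. The 3 sorted subsets were LYVE1+CX3CR1+ macrophages (Lyve1 in the labels), MHCII+CD11c- macrophages (IAIE) and MHCII+CD11c+ macrophages (CD11c). Each was taken from control mice (Control or Healthy in the labels) and from mice given immune complexes (IC), antibody bound to antigen, into a vein 8 h earlier. According to the study's methods the IC were ovalbumin with rabbit antibody to it, and the mice were adult and of both sexes. Each of the 6 groups held 3 libraries, except MHCII+CD11c+ macrophages after IC with 2. For the sorted subsets a legend of the study appears to describe several mice per library, without saying whether this holds for these knockout libraries, and the time of day at which tissue was taken is not given in the sources used here. Control and IC mice may or may not have been collected at the same hour, and a difference in hour cannot be told apart from an effect of IC in these data. Nothing in the labels says whether the subsets came from the same mice, so the responses of the 3 subsets may not be independent.

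Libraries held 2301913 to 7248939 counted reads, so that 3 reads, taken as the floor of detection, were worth 0.414 to 1.3 CPM, the unit of all levels here (reads of a gene scaled to the size of its library). Such floors cover counting error only. Sorting markers followed the labels for CD11c and MHC class II, but less cleanly for Lyve1. Lyve1 was at 1730, 1800 and 2340 CPM in LYVE1+CX3CR1+ controls and also at 2340 CPM in IC library 1 of MHCII+CD11c- macrophages. Itgax, which encodes CD11c, lay between 275 and 443 CPM in the MHCII+CD11c+ libraries and at or below 16 CPM in all others, and the MHC class II transcript H2-Eb1 was at or below 7.54 CPM in LYVE1+CX3CR1+ libraries against at least 1330 CPM elsewhere. Control library 2 of MHCII+CD11c+ macrophages stood apart, with 382 CPM of Lyve1 against 29.8 and 25.3 CPM in the other controls of that subset. Many of the values that this library moves are given with and without it, and the rest only with it. Fcgr2b itself had between 69.3 and 248 CPM in all 17 libraries. Counts per gene do not show which exons these reads come from, so they do not check the knockout.

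In mammalian cells, BMAL1 (encoded by Arntl) and CLOCK form a dimer that binds E-box sequences and drives transcription of the Per and Cry genes, whose proteins then repress that dimer. In a second loop, REV-ERBα and REV-ERBβ (Nr1d1 and Nr1d2) repress Arntl through elements that ROR receptors activate. DBP activates and NFIL3 represses genes through D-boxes, and macrophages are known to run this clock themselves. Per1 and Per2 are also known to respond directly to signals such as cAMP and glucocorticoids.

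Short stretches of 4 members are shown because they carry the only matches to the 4 elements searched, in windows from 250 bases before to 50 bases after RefSeq transcript starts (GRCm38.p6). Of the 10 members, 9 had such a window, and Per2 did not. The matched element is in capitals, sequences read 5′ to 3′ along the strand of the gene, and the first 2 hold the E-box CACGTG while the last 2 hold the ROR core TAGGTCA, in Nfil3 as its reverse complement.
Per1: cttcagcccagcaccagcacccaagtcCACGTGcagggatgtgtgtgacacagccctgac
Cry1: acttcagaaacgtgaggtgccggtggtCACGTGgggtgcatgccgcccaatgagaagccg
Nfil3: ggcgctcggaacTGACCTActaac
Arntl: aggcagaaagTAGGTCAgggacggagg

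The Per1 stretch is chr11:69098756-69098815 on the plus strand, with the E-box starting 166 bases before a start site at position 69098949, in an intron of the longest-reaching Per1 transcript. The Cry1 stretch is chr10:85185082-85185141 on the minus strand, upstream of the gene, with the E-box starting 60 bases before the start. The Nfil3 stretch is chr13:52981040-52981063 on the minus strand, and the Arntl stretch is chr7:113207531-113207557 on the plus strand. Both of these fall in the 5′ UTR of a first exon in GENCODE M21. Searched on both strands, the E-box was in the windows of 8.09% of all genes and the ROR core in those of 2.97%. No member window held a D-box (TTATGTAA or TTACGTAA, 1.23% of genes) or a cAMP element (TGACGTCA, 2.03% of genes). A match is a run of letters in a window and does not show binding.

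Arntl had the largest fitted difference between IC and control among the 10 members. In LYVE1+CX3CR1+ controls it stood at 129, 133 and 127 CPM, and after IC at 23.4, 35.9 and 23.2 CPM. Every IC library lay far below every control library of the subset, and the log2 fold change was -2.23 ± 0.31 (SE), a level 4.70-fold lower. These are the values that led to the list. In bulk samples, fewer cells carrying a transcript and less transcript per cell cannot be told apart.

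In MHCII+CD11c- macrophages Arntl went from 83.4, 105 and 83.9 CPM in controls to 44.1, 64.3 and 49.3 CPM after IC. The groups did not overlap, but the log2 fold change of -0.79 ± 0.30 did not pass the test (edgeR adjusted p = 0.329). Lack of overlap was common over all genes tested. In MHCII+CD11c- macrophages 8.48% had every IC library below every control, and 8.72% every IC library above. These shares were 9.02% and 14.1% in MHCII+CD11c+ and 16.7% and 4.95% in LYVE1+CX3CR1+ macrophages. MHCII+CD11c+ controls were at 21.5, 66.3 and 26.5 CPM and the IC libraries at 26.7 and 25.1 CPM. Here the groups overlapped (log2 fold change -0.57 ± 0.35, edgeR adjusted p = 1.0), and the high control was library 2, the one with excess Lyve1. Without that library the log2 fold change of Arntl in this subset was 0.12. Averaged over both MHCII+ subsets the IC response of Arntl was -0.68 ± 0.23 (edgeR adjusted p = 0.188), and -0.33 without that library.

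Clock, the partner of Arntl, showed no comparable step. Its LYVE1+CX3CR1+ levels were 146, 131 and 156 CPM in controls and 146, 124 and 171 CPM after IC. The groups overlapped throughout, with a log2 fold change of 0.03 ± 0.23. In the MHCII+CD11c- subset the controls, at 101, 110 and 98.3 CPM, sat just above the IC libraries, at 97.3, 95.8 and 80.6 CPM (log2 fold change -0.18 ± 0.23, edgeR adjusted p = 0.911). For MHCII+CD11c+ macrophages the change was 0.11 ± 0.25 (edgeR adjusted p = 1.0), and 0.34 without control library 2 (edgeR adjusted p = 0.802). As these 2 genes encode the partners of a dimer, their reads can be set against each other within a library. In the LYVE1+CX3CR1+ subset, control libraries held 0.984 to 1.23 Clock reads per Arntl read, and IC libraries 3.46 to 7.36. The Arntl values there led to the list, so this is a description. The ratio was 1.05 to 1.21 in controls and 1.49 to 2.21 after IC in the MHCII+CD11c- subset. In the MHCII+CD11c+ subset the groups overlapped, at 1.35 to 3.59 in controls and 2.7 to 3.01 after IC.

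**Figure D1:**
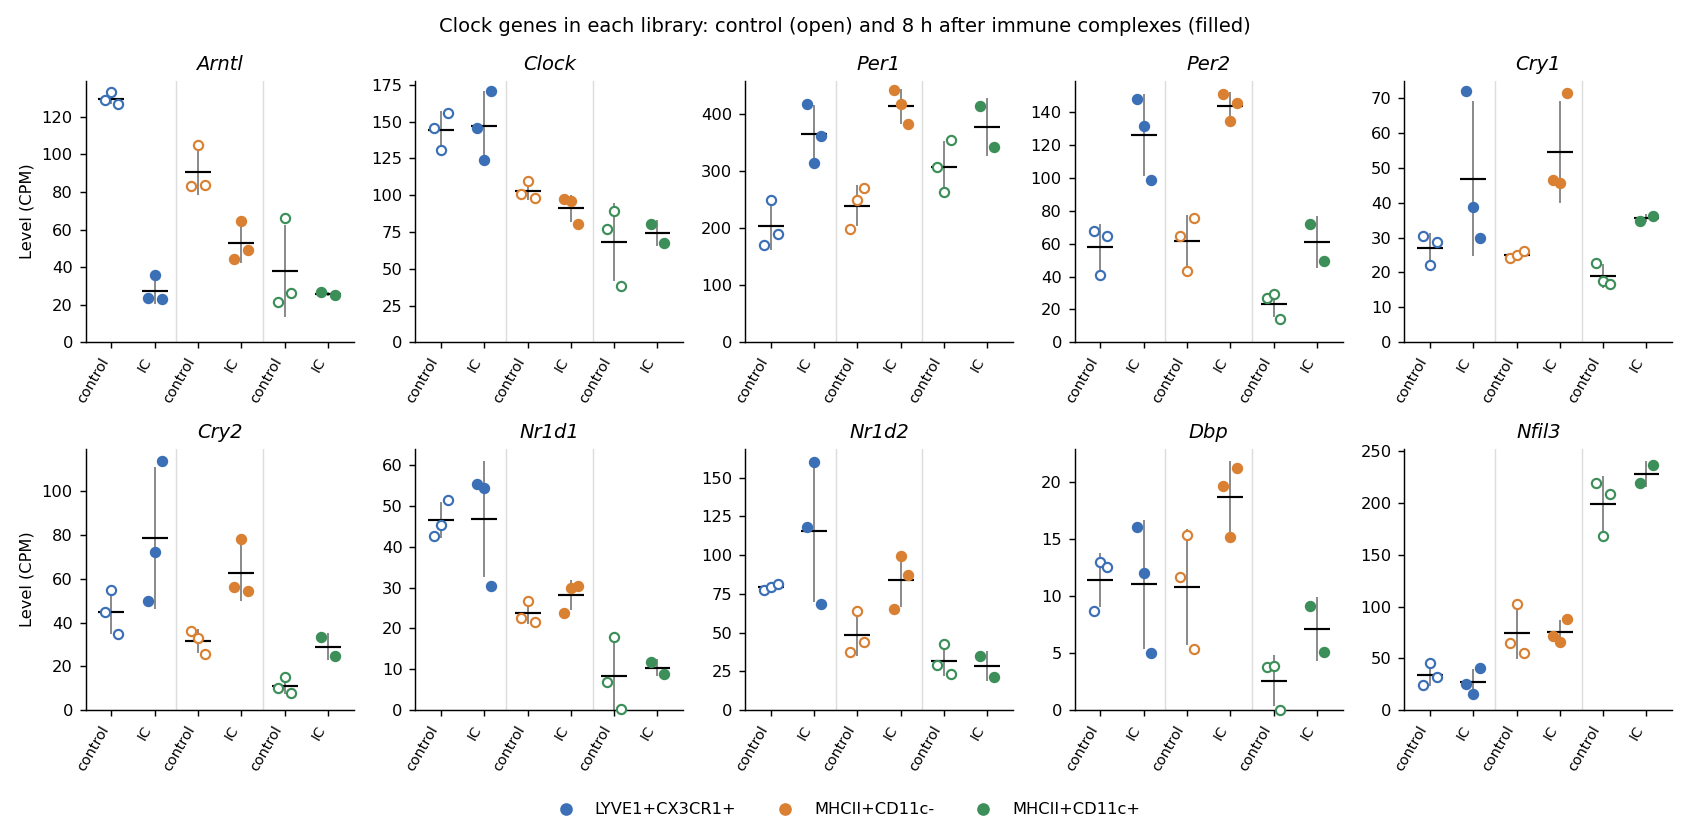
Level of the 10 clock genes in CPM (linear axes from 0) in each of the 17 libraries. Open circles are controls, filled circles are libraries from mice given IC 8 h earlier, black lines are group means and grey lines ± 1 SD. In the LYVE1+CX3CR1+ subset Arntl lies at 127 to 133 CPM without and 23.2 to 35.9 CPM with IC, while Per2 is higher after IC in all 3 subsets.

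Per2, which encodes a repressor of the BMAL1-CLOCK dimer, was higher after IC in all 3 subsets. In MHCII+CD11c- macrophages the controls were at 65.0, 43.6 and 75.6 CPM and the IC libraries at 151, 135 and 146 CPM. The lowest IC library was well above the highest control, and Per2 rose by a log2 fold change of 1.24 ± 0.26 (edgeR adjusted p = 0.0251). MHCII+CD11c+ macrophages had Per2 controls at 27.2, 29.3 and 14.4 CPM and IC libraries at 72.1 and 49.8 CPM. These groups did not overlap either, with a log2 fold change of 1.35 ± 0.30 that missed the threshold (edgeR adjusted p = 0.0615). Without control library 2 this change was 1.53 (edgeR adjusted p = 0.0235), and the adjusted p over all alternatives ran from 0.0073 to 1.0. LYVE1+CX3CR1+ macrophages had 67.6, 41.1 and 64.5 CPM in controls and 148, 132 and 98.7 CPM after IC, again without overlap (log2 fold change 1.13 ± 0.26, a description). Over both MHCII+ subsets Per2 rose by 1.29 ± 0.20 (edgeR adjusted p = 0.000797), a 2.45-fold change.

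Per1, the paralog of Per2 and the member with the highest level per length in controls of LYVE1+CX3CR1+ macrophages, also rose in the MHCII+CD11c- subset. Controls there were at 199, 249 and 269 CPM and IC libraries at 441, 416 and 381 CPM. No library overlapped between the groups (log2 fold change 0.79 ± 0.18, edgeR adjusted p = 0.038). The MHCII+CD11c+ subset had controls at 306, 263 and 353 CPM and IC libraries at 413 and 341 CPM. These overlapped, and the change of 0.30 ± 0.20 did not pass the test (edgeR adjusted p = 1.0), nor did 0.20 without control library 2 (edgeR adjusted p = 0.897). In LYVE1+CX3CR1+ macrophages Per1 was at 170, 248 and 190 CPM in controls and at 416, 314 and 361 CPM after IC, without overlap (log2 fold change 0.85 ± 0.18, a description). The mean MHCII+ response was 0.54 ± 0.14 (edgeR adjusted p = 0.0412), a call that held in 2 of the 11 fits that each left out 1 library.

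The cryptochromes Cry1 and Cry2, the other partners in the repressor complex, had higher fitted levels after IC in every subset. Cry1 in MHCII+CD11c- macrophages was at 24.1, 25.1 and 26.1 CPM in controls and at 46.6, 45.7 and 71.5 CPM after IC. In MHCII+CD11c+ macrophages it was at 22.8, 17.5 and 16.6 CPM against 34.8 and 36.3 CPM. In both subsets all IC libraries exceeded all controls, with changes of 1.12 ± 0.31 and 0.90 ± 0.35 that did not pass the test singly (edgeR adjusted p = 0.111 and 0.737). Without control library 2 the second of these was 0.84 (edgeR adjusted p = 0.578). Their mean of 1.01 ± 0.23 did (edgeR adjusted p = 0.0253). It held in 5 of 11 fits without 1 library.

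Cry2 in MHCII+CD11c- controls was at 36.3, 33.0 and 25.7 CPM and in IC libraries at 56.1, 78.1 and 54.5 CPM. MHCII+CD11c+ controls were at 10, 15.2 and 7.94 CPM and IC libraries at 33.3 and 24.6 CPM. Neither subset overlapped between control and IC, with changes of 0.99 ± 0.31 (edgeR adjusted p = 0.189) and 1.37 ± 0.36 (edgeR adjusted p = 0.166). Of all genes, 8.72% and 14.1% were likewise higher without overlap in these subsets. Without control library 2 the second was 1.67 and passed (edgeR adjusted p = 0.0431). The mean over both was 1.18 ± 0.24 (edgeR adjusted p = 0.00783), and only the fit without IC library 1 of MHCII+CD11c+ macrophages lost this call among the 11 (adjusted p = 0.0819). In LYVE1+CX3CR1+ macrophages both cryptochromes were spread widely after IC. Cry1 was at 72.0, 38.7 and 29.9 CPM there against 30.4, 22.2 and 28.7 CPM in controls. Cry2 was at 50, 72.1 and 114 CPM against 45.0, 55.1 and 34.9 CPM. For each gene 1 IC library lay inside the control range, with log2 fold changes of 0.79 ± 0.31 for Cry1 and 0.80 ± 0.31 for Cry2.

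In counts, 2 of the 10 members (Per1 and Per2) passed the test after IC in MHCII+CD11c- macrophages, where 0.701% of all genes did. Leaving out any 1 of the 6 libraries of this subset ended both calls. In MHCII+CD11c+ macrophages no member passed edgeR's test, where 0.216% of all genes did. At an unadjusted p under 0.05 there were 3 (Per2, Cry1 and Cry2), against 5.21% of all genes. The DESeq2 Wald test called 1 member and 1.09% of all genes, and voom called 0 members and 0.635% of all genes. Without control library 2 edgeR called 2 members (Per2 and Cry2) and 0.688% of all genes. Without overlap between control and IC libraries, 5 members were higher and 2 lower in MHCII+CD11c- macrophages, against 8.72% and 8.48% of all genes. In MHCII+CD11c+ macrophages 4 were higher and 0 lower, against 14.1% and 9.02%. For the mean MHCII+ response 4 of 10 passed (Per1, Per2, Cry1 and Cry2), all upward, against 1.32% of all genes. The median log2 fold change of the 10 members was 0.42 and that of all genes tested -0.01. Without control library 2 of MHCII+CD11c+ macrophages 3 of the 4 passed, and Per1 did not (0.49, edgeR adjusted p = 0.0632), against 2.15% of all genes, and the medians were 0.65 and 0.04. In LYVE1+CX3CR1+ macrophages 3 members were past the same threshold (Arntl lower, Per1 and Per2 higher) against 0.963% of all genes, a count from which nothing is read because this contrast chose the list.

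**Figure D2:**
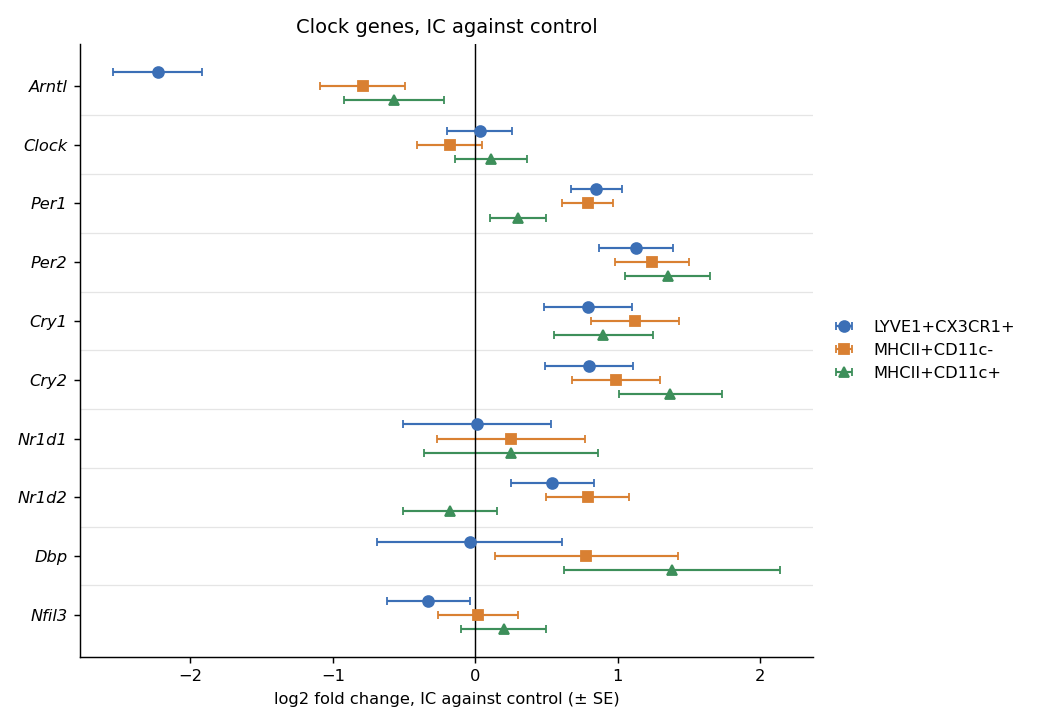
Log2 fold change (± SE) of each clock gene, IC against control, from the edgeR fit to all 17 libraries, in LYVE1+CX3CR1+ (circles), MHCII+CD11c- (squares) and MHCII+CD11c+ macrophages (triangles). Arntl lies at -2.23, -0.79 and -0.57, and Per2 at 1.13, 1.24 and 1.35. Clock lies between -0.18 and 0.11, and Nr1d1 at 0.01, 0.25 and 0.25. Without MHCII+CD11c+ control library 2, the triangle of Nr1d1 would lie at 1.39 and that of Arntl at 0.12.

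Repressor reads can be compared with Arntl reads inside each library, which takes out the scaling between libraries. This ratio was chosen after the values were seen and is a description. A ratio to Arntl also moves when Arntl alone moves, and the Arntl values of LYVE1+CX3CR1+ macrophages led to the list. Per Arntl read, the LYVE1+CX3CR1+ subset had 0.309 to 0.524 reads of Per2 in control libraries and 3.68 to 6.31 in IC libraries. The MHCII+CD11c- ratio was 0.417 to 0.900 in controls and 2.10 to 3.43 after IC, and the MHCII+CD11c+ ratio was 0.443 to 1.27 and 1.99 to 2.70. Control and IC libraries were thus separated in each subset. The Cry2 ratio separated them as well, at 0.276 to 0.415 against 2.01 to 4.89 in LYVE1+CX3CR1+ macrophages, 0.307 to 0.435 against 1.11 to 1.27 in MHCII+CD11c- macrophages and 0.230 to 0.465 against 0.978 to 1.25 in MHCII+CD11c+ macrophages. So did the Cry1 ratio, in the same order of subsets, at 0.167 to 0.236 against 1.08 to 3.08, 0.24 to 0.311 against 0.712 to 1.45 and 0.263 to 1.06 against 1.3 to 1.45. The Per1 ratio did not separate the MHCII+CD11c+ libraries, with 3.96 to 14.2 in controls and 13.6 to 15.5 after IC. Control library 2 had the lowest control ratio of each of these genes in this subset. Without it the lowest was 0.543 for Per2, 0.629 for Cry1, 0.3 for Cry2 and 13.3 for Per1. Separation was not particular to Per and Cry genes. Nr1d1 reads per Arntl read were at 0.331 to 0.406 against 1.3 to 2.36 in LYVE1+CX3CR1+ macrophages, and separated the MHCII+ subsets too. Mean Nr1d1 in LYVE1+CX3CR1+ macrophages was 46.5 CPM in controls and 46.7 CPM after IC.

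**Figure D3:**
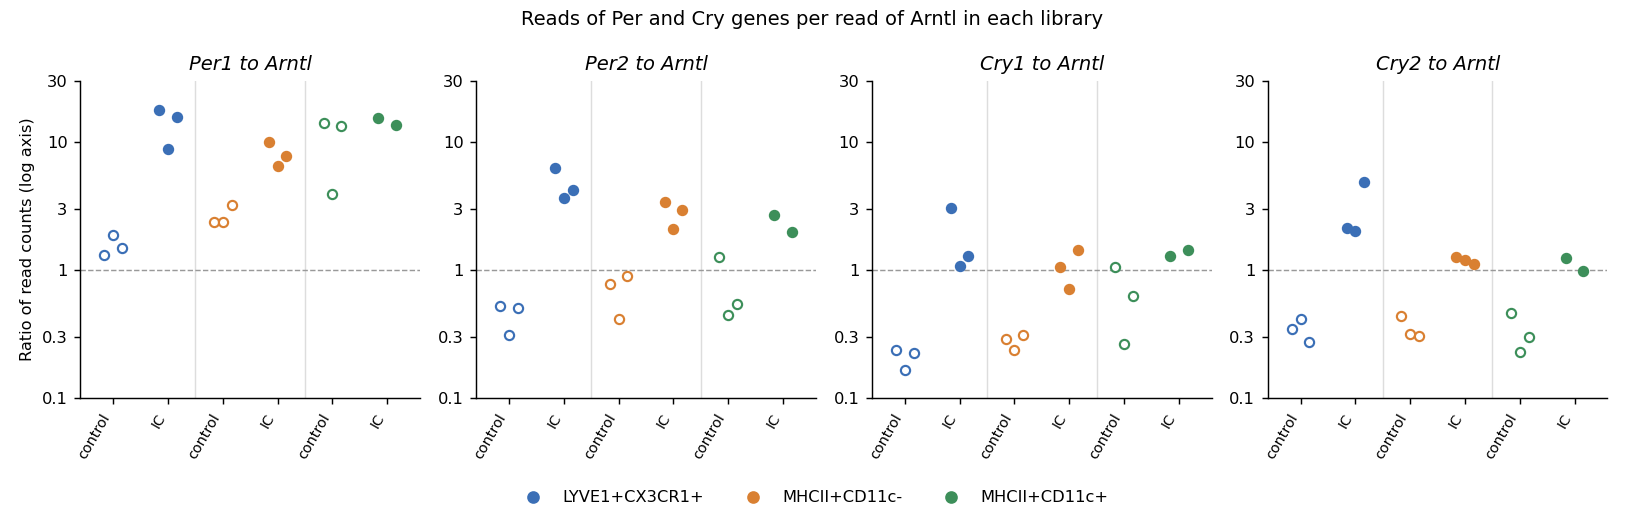
Reads of Per1, Per2, Cry1 and Cry2 per read of Arntl in each library (log axes, dashed line at 1). Open circles are controls and filled circles are IC libraries. For Per2, Cry1 and Cry2 all IC libraries lie above all controls of the same subset, and for Per1 the MHCII+CD11c+ groups overlap.

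Nr1d1 and Nr1d2, which encode the REV-ERB repressors of Arntl, showed no call after IC in the MHCII+ subsets. Nr1d1 in LYVE1+CX3CR1+ macrophages was at 42.7, 45.4 and 51.4 CPM in controls and at 55.3, 54.4 and 30.3 CPM after IC. The IC libraries lay on both sides of the control range (log2 fold change 0.01 ± 0.52), while Arntl in the same 3 libraries was below all controls. Nr1d1 in MHCII+CD11c- macrophages was at 22.6, 26.7 and 21.7 CPM in controls and 23.9, 29.9 and 30.5 CPM after IC (log2 fold change 0.25 ± 0.52, edgeR adjusted p = 0.954). MHCII+CD11c+ controls were uneven, with 6.81 and 18.0 CPM in libraries 1 and 2 and a single read in library 3, and the IC libraries were at 11.9 and 8.98 CPM (log2 fold change 0.25 ± 0.61, edgeR adjusted p = 1.0). This value rests on library 2, without which it was 1.39 (edgeR adjusted p = 0.469). Exons of Nr1d1 overlap those of Thra on the opposite strand over 263 bases, 8.55% of its exonic length. Whether strand was used in counting is not given in the sources used here, so reads in that stretch cannot be assigned with certainty. Thra itself had a log2 fold change of -0.41 (edgeR adjusted p = 0.786) in MHCII+CD11c- and of -0.02 (edgeR adjusted p = 1.0) in MHCII+CD11c+ macrophages. In LYVE1+CX3CR1+ macrophages Thra was at 38.0, 57.6 and 45.5 CPM in controls and 14.9, 31.8 and 19.9 CPM after IC. Its log2 fold change there was -1.08, a description. What Thra reads add to the Nr1d1 values was not tested.

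Nr1d2 in MHCII+CD11c- macrophages was at 37.8, 64.1 and 43.8 CPM in controls and at 65.4, 99.7 and 87.2 CPM after IC. The lowest IC library was just above the highest control (log2 fold change 0.79 ± 0.29, edgeR adjusted p = 0.303). In MHCII+CD11c+ macrophages the value was -0.18 ± 0.33 (edgeR adjusted p = 1.0), from 29.4, 42.7 and 23.4 CPM in controls to 35.1 and 21.4 CPM, and 0.09 without control library 2 (edgeR adjusted p = 0.983). In LYVE1+CX3CR1+ macrophages the controls were tight, at 77.6, 79.7 and 81.6 CPM, and the IC libraries ranged over 118, 160 and 68.4 CPM.

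Of the D-box factors, Dbp had few reads. It was at 8.66, 13 and 12.6 CPM in control libraries of the LYVE1+CX3CR1+ subset, whose IC libraries held 16.1, 12 and 4.98 CPM. These overlapped, and the fitted change of -0.04 ± 0.65 took the other sign under most alternatives, DESeq2 size factors among them (0.04). Dbp in MHCII+CD11c- macrophages was at 11.7, 15.4 and 5.35 CPM in controls and 19.7, 15.2 and 21.2 CPM after IC (log2 fold change 0.78 ± 0.64, edgeR adjusted p = 0.80). In MHCII+CD11c+ macrophages it was at 3.83 and 3.90 CPM and 0 reads in controls and at 9.11 and 5.13 CPM after IC (log2 fold change 1.38 ± 0.76, edgeR adjusted p = 1.0, and 1.74 without control library 2, edgeR adjusted p = 0.607). With SEs this wide, a change of 0.78 in Dbp was not detectable at this depth. Exons of Dbp overlap Sphk2 on the opposite strand over 539 bases, 18% of its exonic length, and Sphk2 changed by 0.15 (edgeR adjusted p = 0.952) and 0.05 (edgeR adjusted p = 1.0) in the MHCII+ subsets.

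Nfil3 had no call after IC in the MHCII+ subsets. MHCII+CD11c- libraries were at 64.6, 102 and 55.5 CPM in controls and 71.4, 65.9 and 88.1 CPM after IC (log2 fold change 0.02 ± 0.28, edgeR adjusted p = 0.993), and MHCII+CD11c+ libraries at 219, 168 and 209 CPM and 219 and 237 CPM (0.20 ± 0.30, edgeR adjusted p = 1.0, and 0.09 without control library 2, edgeR adjusted p = 0.983). Control and IC ranges overlapped in both. LYVE1+CX3CR1+ libraries were at 24.6, 45.4 and 32.1 CPM and 25.2, 15.7 and 40.7 CPM.

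Control libraries answer a further question, how the clock genes stand in the 3 subsets without IC. The LYVE1+CX3CR1+ control levels of Arntl belong to the contrast that chose the list. Differences of Arntl from these controls are therefore descriptions, and its call among the 9 below is not read as support. Against MHCII+CD11c+ controls, 9 of the 10 members differed in LYVE1+CX3CR1+ controls, in a comparison where 15.2% of all genes were called. Arntl, Clock, Per2, Cry2, Nr1d1, Nr1d2 and Dbp were higher in LYVE1+CX3CR1+ macrophages and Per1 and Nfil3 lower, while Cry1 did not pass (0.51 ± 0.32, edgeR adjusted p = 0.331). The median difference of the members was 1.29 on the log2 scale, and that of all genes 0.05. Without MHCII+CD11c+ control library 2 the same 9 members passed, against 16.4% of all genes, with medians of 1.52 and 0.11.

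Arntl was 1.75 ± 0.30 higher on the log2 scale (edgeR adjusted p = 0.000252), and 2.44 without control library 2 (edgeR adjusted p = 8.85e-07), which had 66.3 CPM against 21.5 and 26.5 CPM in the other controls. For the reason given above, these Arntl values are a description. Clock was 1.07 ± 0.23 higher (edgeR adjusted p = 0.00182) and Per2 1.27 ± 0.27 (edgeR adjusted p = 0.00186). Cry2 was 2.00 ± 0.32 higher (edgeR adjusted p = 0.000108), from a mean of 11.1 ± 3.76 CPM (SD, n = 3) in MHCII+CD11c+ to 45.0 ± 10.1 CPM in LYVE1+CX3CR1+ macrophages. The repressors of the second loop went the same way, Nr1d1 by 2.39 ± 0.54 (edgeR adjusted p = 0.00461, and 3.54 without library 2) and Nr1d2 by 1.31 ± 0.30 (edgeR adjusted p = 0.00312). Dbp was 2.05 ± 0.69 higher (edgeR adjusted p = 0.046), a call lost in 5 of 6 fits without 1 library, kept without MHCII+CD11c+ control library 2. Thra, which overlaps Nr1d1, differed too, by 1.23 (edgeR adjusted p = 0.0127), and Sphk2, which overlaps Dbp, by 0.30 (edgeR adjusted p = 0.605).

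Nfil3 went the other way, with the widest gap when all libraries were used. It was at 24.6 to 45.4 CPM in LYVE1+CX3CR1+ controls and at 168 to 219 CPM in MHCII+CD11c+ controls, a log2 difference of -2.55 ± 0.28 (edgeR adjusted p = 1.21e-06). Without MHCII+CD11c+ control library 2 the difference was -2.66 (edgeR adjusted p = 1.02e-06), and Nr1d1 had a wider gap, at 3.54. MHCII+CD11c- controls lay between, at 55.5 to 102 CPM. Each neighbouring pair in this order passed the test, with Nfil3 -1.13 ± 0.28 in LYVE1+CX3CR1+ against MHCII+CD11c- macrophages (edgeR adjusted p = 0.0395) and 1.42 ± 0.27 in MHCII+CD11c+ against MHCII+CD11c- macrophages (edgeR adjusted p = 0.00169). The first of these was lost in 4 of 6 fits without 1 library and the last in none. The difference of Per1 between these controls had the same sign, at -0.60 ± 0.18 (edgeR adjusted p = 0.0243), which was lost in 4 of 6 such fits.

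Set against MHCII+CD11c- controls, the LYVE1+CX3CR1+ controls showed fewer calls. Nfil3 was the only member of 10 that passed in edgeR, against 1.56% of all genes, and 3 had an unadjusted p under 0.05, against 10.2% of all genes. Arntl was 0.51 ± 0.30 higher in the LYVE1+CX3CR1+ subset (edgeR adjusted p = 0.654) with no overlap between the groups. Of all genes, 11.3% were likewise higher without overlap. The differences of Per1 and Per2 were -0.24 ± 0.18 and -0.08 ± 0.27 (edgeR adjusted p = 0.822 and 0.992). These SEs leave differences of the size of Nr1d1 (0.97 ± 0.52, edgeR adjusted p = 0.595) undecided. Between the MHCII+ subsets 4 of 10 members passed, against 8.66% of all genes. In MHCII+CD11c+ controls Arntl was -1.24 ± 0.31 (edgeR adjusted p = 0.0111), Per2 -1.35 ± 0.27 (edgeR adjusted p = 0.00221) and Cry2 -1.50 ± 0.32 (edgeR adjusted p = 0.00404) relative to MHCII+CD11c- controls, and Nfil3 was higher. The Arntl call was lost without MHCII+CD11c+ control library 1 or without control library 3, with an adjusted p of up to 0.0758. Without library 2 its difference was -1.93 (edgeR adjusted p = 3.93e-05), and Clock (-0.82, edgeR adjusted p = 0.0335) and Nr1d1 (-2.57, edgeR adjusted p = 0.00254) were called as well, 6 members in all against 9.59% of all genes. With all libraries, 8 of 10 members had negative differences, and the median of the 10 was -0.92 against -0.03 over all genes. The summed level of 5 macrophage markers also differed between these controls, at 1250 to 1570 CPM in MHCII+CD11c+ macrophages against 3250 to 5220 CPM in the other subsets, and its part in the differences was not tested.

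**Figure D4:**
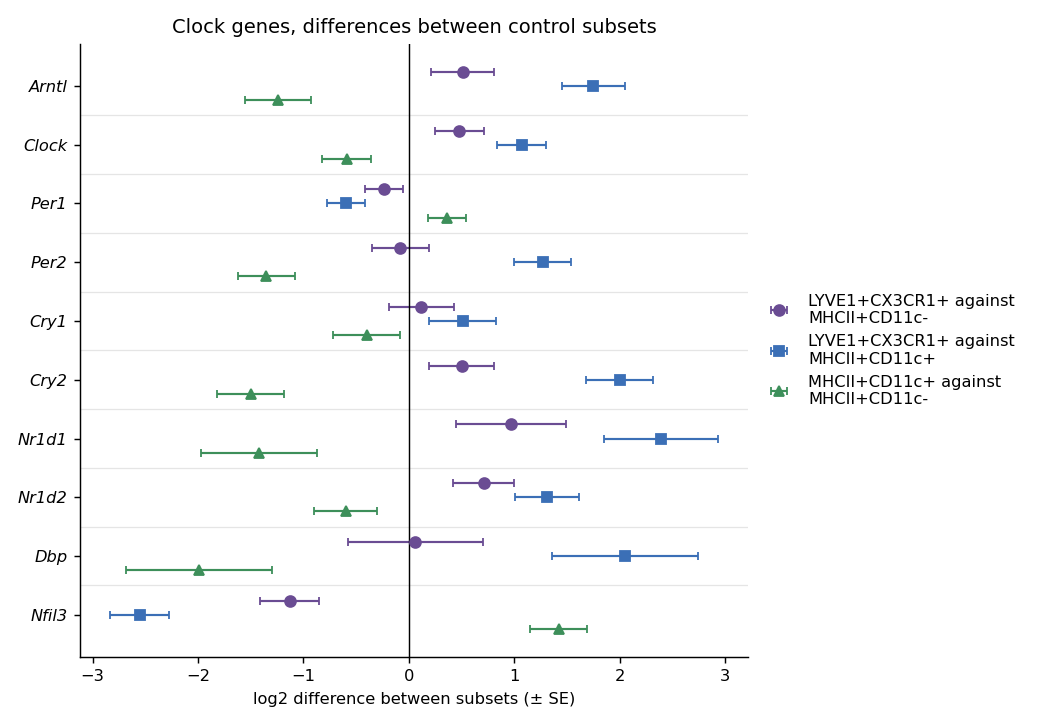
Log2 difference (± SE) of each clock gene between control subsets, LYVE1+CX3CR1+ against MHCII+CD11c- (circles), LYVE1+CX3CR1+ against MHCII+CD11c+ (squares) and MHCII+CD11c+ against MHCII+CD11c- (triangles). Against MHCII+CD11c+ macrophages all members but Per1 and Nfil3 lie above 0, and Nfil3 lies at -2.55.

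Per kilobase of exon, which allows levels of different genes to be compared, LYVE1+CX3CR1+ controls had 36.0 ± 7.23 CPM per kb (SD, n = 3) of Per1 and 17.2 ± 0.43 of Arntl. Nfil3 (16.8 ± 5.21), Nr1d1 (15.1 ± 1.44) and Nr1d2 (14.7 ± 0.37) followed within their spread of one another. Clock (10.5 ± 0.91) and Per2 (9.85 ± 2.47) did not differ beyond their spread, nor did Cry1 (8.11 ± 1.3) and Cry2 (7.12 ± 1.60), and Dbp was lowest at 3.81 ± 0.80 CPM per kb. In MHCII+CD11c+ controls Nfil3 led with 98.1 ± 13.4 CPM per kb, ahead of Per1 at 54.6 ± 8.03. After IC in LYVE1+CX3CR1+ macrophages Arntl stood at 3.66 ± 0.96 CPM per kb, beside Dbp at 3.68 ± 1.88, and Per1 at 64.6 ± 9.06. With the longest transcript as the length, Arntl in LYVE1+CX3CR1+ controls would be 32.4 CPM per kb, still below Per1 at 43.4. By that length Clock would be at 14.8 and Per2 at 9.89, and Cry1 at 8.96 and Cry2 at 11.3. How these pairs compare thus depends on the length used.

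Whether the response to IC differed between subsets was also computed. The response of Arntl in the LYVE1+CX3CR1+ subset minus the mean of its MHCII+ responses was -1.56 ± 0.39 on the log2 scale, and -1.90 without MHCII+CD11c+ control library 2. This is a description, since the LYVE1+CX3CR1+ values chose the list. Over all libraries no member was called, Arntl included, against 0.0458% of all genes. Without that library Arntl was called (edgeR adjusted p = 0.00399), against 0.278% of all genes. Differences of the 10 members ran from -1.56 to 0.30, and the next to Arntl in size was Dbp at -1.11 ± 0.82. Between the MHCII+ subsets no gene of 15272 passed in edgeR (0%), with 496 at an unadjusted p under 0.05, and 2 by the DESeq2 Wald test. Without MHCII+CD11c+ control library 2 edgeR called 21 genes (0.139%). No member was among the called genes of these fits, with log2 differences from -0.97 (Nr1d2) to 0.60 (Dbp) over all libraries.

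Of the further clock genes listed beside the members, 16 passed the filter on low counts, and Hlf, Rorb and Fbxl21 were too low to test. Npas2, which can replace Clock, was also close to absent, with at most 5.02 CPM and no reads in 11 libraries. After IC none of the 16 passed in MHCII+CD11c- or MHCII+CD11c+ macrophages in edgeR, with 4 and 3 at an unadjusted p under 0.05, where 9.99% and 5.21% of all genes were. Tef, a PAR bZIP factor related to Dbp, was at 58.9, 46.1 and 39.5 CPM in MHCII+CD11c- controls and 96.2, 70.0 and 74.6 CPM after IC. In MHCII+CD11c+ macrophages it was at 14.5, 17.6 and 25.0 CPM and 47.3 and 30.4 CPM. No IC library overlapped its controls, where 8.72% and 14.1% of all genes were likewise higher without overlap. Tef rose in the mean MHCII+ response by 0.89 ± 0.20 (edgeR adjusted p = 0.0195), 1 of 16 to pass there, against the 1.32% of all genes given above. That call was lost in 4 of 11 fits without 1 library. LYVE1+CX3CR1+ macrophages had 50.4, 37.3 and 53.0 CPM of Tef in controls and 88.1, 99.5 and 135 CPM after IC (log2 fold change 1.19 ± 0.26, a description).

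Between control subsets 4 of the 16 differed in LYVE1+CX3CR1+ against MHCII+CD11c+ macrophages, where 15.2% of all genes did. Tef (1.32 ± 0.27, edgeR adjusted p = 0.00131) and Rora, which encodes an activating receptor at ROR elements (2.28 ± 0.43, edgeR adjusted p = 0.000758), were higher in LYVE1+CX3CR1+ macrophages. Bhlhe41, which encodes the E-box repressor DEC2, was at 31.0, 24.1 and 25.3 CPM there and had no reads in 2 of 3 MHCII+CD11c+ controls and 1.86 CPM in control library 2 (edgeR adjusted p = 0.0016). Noct, which encodes the rhythmic phosphatase nocturnin, differed in the other direction by -1.36 ± 0.34 (edgeR adjusted p = 0.00688). Between the MHCII+ subsets, the controls with CD11c had less Tef, Rora and Bhlhe41 (edgeR adjusted p = 0.00213, 0.0425 and 0.0438), 3 of 16 against 8.66% of all genes. The calls of Rora and Bhlhe41 in that contrast were lost in 4 and 5 of 6 fits without 1 library. None of the 16 passed between LYVE1+CX3CR1+ and MHCII+CD11c- controls, with 4 at an unadjusted p under 0.05, where 10.2% of all genes were.

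Once the mean of each subset was taken out, the members could be compared in pairs over the 17 libraries. The highest of the 45 values of Pearson's r was that of Nr1d1 with Dbp (0.873), and Clock had r = 0.778 with Nr1d1 and 0.586 with Dbp. It ranged from 0.519 to 0.863 over the 6 pairs among Per1, Per2, Cry1 and Cry2, and from -0.815 to -0.418 between Arntl and these 4. Arntl and Clock had r = 0.141, and Nfil3 had r between -0.353 and 0.117 with the other 9 members. The 17 points share the contrast of control with IC, which chose the list, so these values only describe the data. By the same measure over all tested genes, Arntl was most like Hexim2 (r = 0.948), Lrrc51 (0.929) and Caprin2 (0.914). Per1 was most like Sik1 (0.924), Arpc3 (0.907) and Pim3 (0.901), and Dbp was most like Icmt (0.945), Galns (0.944) and Zfat (0.918).

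Other transcripts moved alongside the clock genes after IC, and their part in the results was not tested. The 6 markers of the LYVE1+CX3CR1+ subset summed to 3850 to 4730 CPM in its control libraries and to 5900 to 7020 CPM in its IC libraries, and to 1020 to 1900 CPM and 1840 to 3370 CPM in the MHCII+CD11c- subset. The MHCII+CD11c+ subset had sums of 64.3, 100 and 632 CPM in controls, the last being library 2, and of 281 and 574 CPM after IC, so that without library 2 both IC libraries lay above both controls. Per2 and Cry2, which were called in this subset without library 2, had lower levels in MHCII+CD11c+ controls than in those of the LYVE1+CX3CR1+ subset. The sum of 5 MHCII+ markers went from 18200 to 19900 CPM in MHCII+CD11c- controls to 12200 to 13800 CPM after IC, and in LYVE1+CX3CR1+ macrophages from 299 to 673 CPM to 66.4 to 119 CPM, with H2-Eb1 at 0 in all 3 IC libraries. The 5 macrophage markers overlapped between control and IC in both of these subsets. In MHCII+CD11c+ macrophages they summed to 1250 to 1570 CPM in controls and 2060 to 2220 CPM after IC. Markers of other cells moved with IC in this subset too. The 6 neutrophil markers summed to 74.3 to 252 CPM in its controls and 25.6 to 29.7 CPM after IC, with S100a9 at 37.2 to 143 CPM against 0 and 0.294 CPM. Mast cell markers, 3 in number, summed to 0.425 to 3.40 CPM in its controls and 17 to 31.2 CPM after IC, with Kit at 10.3 and 12.9 CPM after IC and at most 0.929 CPM in controls. Neutrophil sums overlapped in MHCII+CD11c- macrophages (39.8 to 196 CPM and 66.6 to 108 CPM), and so did the mast cell sums (0 to 1.34 CPM and 0 to 18.1 CPM). In LYVE1+CX3CR1+ macrophages the neutrophil sums were at most 39.8 CPM and the mast cell sums at most 5.39 CPM. Fibroblast markers reached at most 206 CPM in any library and overlapped between control and IC in each subset, and so did endothelial markers, which reached at most 63.7 CPM. Ly6g, a defining neutrophil marker, had no read in any IC library.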

How the data were processed

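The members and gene lists were chosen with earlier results of these data known. RNA (5 ng) from sorted synovial macrophages was made into stranded libraries and sequenced in pairs. According to the labels and methods the authors trimmed reads with Trim Galore, aligned them to mm10 with HISAT2 and counted them with featureCounts, so the deposited unit is raw counts per gene. Tool versions, annotation and strand setting are not given in the sources used here. The deposited table held 1 further column that matched no sample and summed to 0, and was not used. Counts of all 17 libraries were fitted in edgeR 4.0.16 (R 4.3.3) with TMM scaling, a group mean for each of 6 groups, filterByExpr (minimum count 10) and the quasi-likelihood test with 11 residual degrees of freedom. P-values were adjusted by Benjamini-Hochberg over 15272 genes, and a call is an adjusted p under 0.05. Where nothing says that libraries came from separate mice, p-values measure only the spread between libraries. Levels are TMM-scaled CPM. Exon lengths from GENCODE M21 matched 22266 symbols. Named were the 10 members, those of the further clock genes that were called or too low to test, and the 3 genes most like Arntl, Per1 and Dbp. Alternatives used limma 3.58.1, DESeq2 1.42.0 and sva 3.50.0, and the fits were tested on simulated counts. No duplicated library was found. Some listed genes are not reported here.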

Additional observations from a re-analysis of the deposited data

How the results depend on the processing

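Values were recomputed with DESeq2 size factors, without the filter on low counts, with the DESeq2 Wald test, with voom quality weights, with only the groups compared, with surrogate variables, with reads drawn to equal depth, with a length offset, at a stricter threshold and without each library in turn, and the cause of a change was not tested unless the setting itself holds fewer libraries or reads. Over all genes tested, the median response to IC in LYVE1+CX3CR1+ macrophages was -0.14 on the log2 scale, and between -0.27 and -0.01 over these settings. Over the settings other than leaving out 1 library, the number of the 10 members called moved by more than 1.5 times as follows. Beside each number stands the share of all genes called in the same fit. After IC it was 1 in LYVE1+CX3CR1+ macrophages with only the groups compared (0.558%) or an adjusted p under 0.01 (0.196%), and in MHCII+CD11c- macrophages 1 with DESeq2 size factors (0.635%) or only the groups compared (0.579%) and 0 under 0.01 (0.242%). MHCII+CD11c+ macrophages had 1 without the filter (0.188%), with DESeq2 (1.09%) and at equal depth (0.173%), and the mean MHCII+ response had 2 at equal depth (1.36%) and under 0.01 (0.596%). Between LYVE1+CX3CR1+ and MHCII+CD11c- controls it was 3 with voom (6.4%), 2 with only the groups compared (3.92%), 0 with the length offset (1.52%) and 0 under 0.01 (0.557%), and between the MHCII+ controls 2 with surrogate variables (3.6%). Leaving out 1 library gave 1 to 2 called members after IC in LYVE1+CX3CR1+ (0.283% to 1.13% of all genes), 0 to 0 in MHCII+CD11c- (0.192% to 1.14%) and 0 to 2 in MHCII+CD11c+ macrophages (0% to 0.688%), 1 to 4 for the mean MHCII+ response (0.478% to 2.15%), 0 to 1 between LYVE1+CX3CR1+ and MHCII+CD11c- controls (0.633% to 2.71%), 7 to 9 against MHCII+CD11c+ controls (10.5% to 16.4%), 3 to 6 between the MHCII+ controls (5.23% to 9.59%) and 0 to 1 for the LYVE1+CX3CR1+ response against the MHCII+ mean (0.0264% to 0.278%).

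Signs turned only for log2 values that were not called in either fit. After IC in MHCII+CD11c- macrophages Nfil3 was -0.02 with DESeq2 size factors and with the DESeq2 test, -0.00 with voom, -0.20 with surrogate variables and -0.01 with the length offset, and -0.15 to 0.32 without 1 library. After IC in MHCII+CD11c+ macrophages Clock was -0.20 with surrogate variables and -0.00 at equal depth, and Nr1d1 -0.13 with surrogate variables. Without 1 library the range there was -0.86 to 0.12 for Arntl, -0.17 to 0.34 for Clock, -0.25 to 1.39 (without control library 2) for Nr1d1 and -0.58 to 0.12 for Nr1d2. In the mean MHCII+ response Clock was 0.06 with the length offset and -0.17 to 0.08 without 1 library, and Nr1d1 -0.00 to 0.82. Between LYVE1+CX3CR1+ and MHCII+CD11c- controls Per2 was 0.07 with voom, 0.15 with surrogate variables and -0.28 to 0.11 without 1 library, and Dbp -0.09 with voom, -0.46 with surrogate variables, -0.15 at equal depth and -0.28 to 0.40 without 1 library.

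Whether the replicate numbers of the labels pair the libraries is not settled by these data. Same-numbered libraries of the same treatment had correlations of their deviations from the group mean of 0.00129 to 0.286 (median 0.0413), with 2 of 16 pairs over 0.1. Other-numbered libraries of the same treatment had correlations of -0.15 to 0.0672 (median -0.0287). Same-numbered pairs were thus somewhat more alike, but mostly weakly so. With the number within a treatment as a random replicate block, Nfil3 after IC in MHCII+CD11c- macrophages was -0.01, and with it as a fixed replicate block 1 member, Arntl, was called for the LYVE1+CX3CR1+ response against the MHCII+ mean (0.242% of all genes). The other replicate block fits kept the number of called members within 1.5 times. Depth limits Dbp and, in MHCII+CD11c+ control library 3, Nr1d1, which had 1 read there.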
